A study of Mus musculus with 6 samples.

Results

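Tissue macrophages, gated by a few marker genes, were compared between the cell libraries of 1 single-cell RNA-seq matrix, whose barcodes end in a number from 1 to 4. Members were chosen by their UMI counts of a few genes. A tissue macrophage was a barcode with at least 1000 unique molecular identifiers (UMIs), at least 500 genes, at most 10% mitochondrial UMIs, at least 1 UMI of Csf1r and at least 3 UMIs of Mrc1 and Lyve1 together. At most 2 of the 6 Kupffer cell genes Cd5l, Timd4, Marco, Spic, Il18bp and Clec4f could be detected, and Cxcl1 plus Cxcl2 had to stay under a share of 0.2% of the cell's UMIs. The rule gave 10419 cells, of 34587 that passed the cell filter and 39048 barcodes in all. Libraries 1 to 4 held 3360, 3001, 1629 and 2429 of them, which was 40.1%, 42.5%, 22.6% and 20.3% of each library's filtered cells. UMIs were summed per library over these cells, and libraries 3 and 4 were set against libraries 1 and 2.

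The labels describe 6 samples in 3 groups of 2, but the barcode numbers match no sample name, so no library could be given a genotype, an age or a treatment. One group was Cx3cr1CreER; R26tdTomato embryos whose mothers received 4 hydroxytamoxifen at E9.5, and another was Csf1r-Mer-iCre-Mer; Csf1r-EGFP; R26tdTomato embryos with the drug at E8.5. From both, macrophage and monocyte lineage cells of whole E14.5 bodies were taken, and both carried the R26tdTomato reporter, which is switched on in cells using the Cx3cr1 or the Csf1r driver at that time and in their descendants. The remaining group was total bone marrow of wildtype C57BL/6 mice aged 2 months, which received no drug. Whether cells of that group are in the matrix is not told by the labels. The deposited matrix is named after Cx3cr1 and Csf1r only, and tdTomato UMIs were found in members of every library. How the lineage cells were isolated, and how many embryos went into a sample, was not stated by the labels. The split of the libraries was chosen with values of these data in view, so everything below is a description with no test, and the difference between the libraries of each pair serves as the measure of spread.

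Tissue macrophages of the embryo descend largely from yolk sac and fetal liver progenitors. They clear dying cells and debris and respond to damage and microbial products with chemokines and cytokines. The mannose receptor Mrc1 and the hyaluronan receptor Lyve1 mark macrophages of connective tissue and vessel walls, Csf1r is the receptor for the growth factor that keeps them alive, and Cx3cr1, the receptor for fractalkine, marks early macrophages and brain microglia.

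The label was checked against genes outside the rule. The macrophage genes Adgre1, C1qa, F13a1, Ms4a7, Folr2, Pf4 and Cd68 were higher in the members than in the other filtered cells of every library. Adgre1, which encodes the F4/80 antigen, stood at 367, 432, 351 and 389 CPM (UMIs of the gene per 1e6 UMIs of the library's members) in members of libraries 1 to 4, against 208, 235, 91.1 and 121 in the other cells. The microglial gene P2ry12 stood at 86.6, 107, 86.4 and 85.1 CPM in the members, against 550 in cells gated as microglia. The genes that admitted a cell differed by less than 1.5-fold between the pairs. Csf1r held 966, 1090, 814 and 886 CPM, with no overlap and a log2 difference of -0.27, Mrc1 held 750, 806, 743 and 637, and Lyve1 held 463, 484, 518 and 398. Among the genes that the gate limited, Marco held 4.85, 6.86, 1.85 and 2.99 CPM and Cxcl1 held 4.15, 3.51, 4.62 and 12.5, each without overlap and both low. The gate selected for these genes, so their levels are a description, and none of the 11 gate genes was among the genes called below. Cd5l, Marco, Spic, Il18bp, Clec4f and Cxcl1 were under 10 CPM as a mean of the 4 libraries, so they could not be called.

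Members had medians of 13565 to 15769 UMIs per cell and median mitochondrial shares of 2.55% to 2.66%. Summed UMIs ranged from 27074268 in library 3 to 51086567 in library 1, so the sums differed in depth with the number of cells. Libraries stood apart in sex-linked genes, which the autosomal rule leaves out of the comparison. Xist, the RNA of the inactive X chromosome, held 597 and 593 CPM in members of libraries 1 and 2, against 4 UMIs in library 3 and 1 in library 4. The Y-linked Ddx3y was detected in every library, at 15.8, 14.9, 45.6 and 45.9 CPM. The Y-linked Eif2s3y, Uty and Kdm5d were also higher in libraries 3 and 4. Sex-linked expression thus went with the pairs, and the part of sex in the autosomal differences cannot be told apart. Between 85 and 206 barcode sequences, 5 to 16 of them members, were shared by each pair of libraries. The limit on Cxcl1 and Cxcl2 took out more cells of libraries 3 and 4, from 2063 to 1629 and from 3073 to 2429, than of libraries 1 and 2, from 3583 to 3360 and from 3174 to 3001. Just inside that limit, at 0.15% to under 0.2%, lay 472 cells, and just outside it, at 0.2% to under 0.25%, lay 298. Exactly 3 UMIs of Mrc1 and Lyve1 were found in 969 members, and 1402 cells with 2 UMIs were left out. At the limit on Kupffer genes 635 members had 2 and 151 excluded cells had 3.

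Most autosomal genes differed little between the library pairs. The 7126 autosomal genes with at least 10 CPM, as a mean of the 4 libraries, were compared as the mean log2(CPM + 10) of libraries 3 and 4 minus that of libraries 1 and 2, a scale that understates differences of low genes. The median absolute difference was 0.08, against 0.05 between libraries 2 and 1 and 0.05 between libraries 4 and 3. The 95th percentile of the absolute difference was 0.30, against 0.15 and 0.21 within the pairs. A gene was called when the difference was at least 1.5-fold and both libraries of one pair lay above both of the other. By this rule 85 genes (1.19%) were higher in libraries 3 and 4 and 20 (0.281%) were lower, among which 6 and 1 are predicted genes that are given as counts. At 2-fold or more 42 (0.589%) were higher and 4 (0.0561%) lower. A low gene that reached 10 CPM through libraries 3 and 4 had to differ, so these counts say nothing about genes below that level. Within the pairs, differences of 1.5-fold were found for 1 gene up and 13 down from library 1 to 2, and for 19 up and 12 down from library 3 to 4. Absence of overlap without a limit on size was common, at 30.4% of genes for higher and 32.8% for lower, and is read against those shares below.

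**Figure D1:**
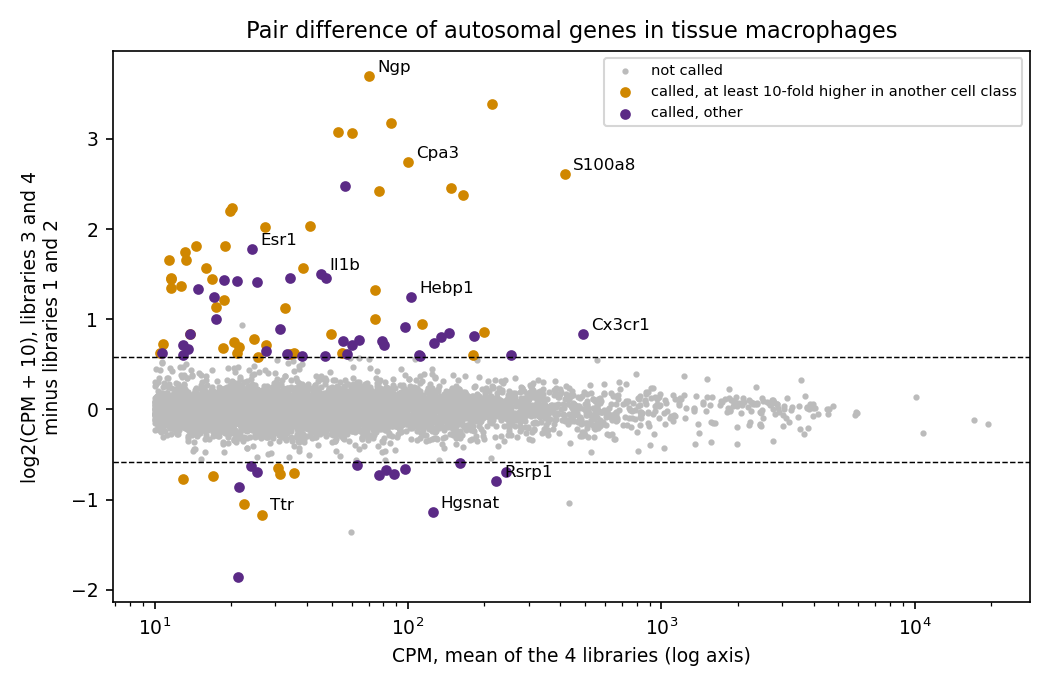
Each point is 1 of the 7126 autosomal genes, by its CPM as a mean of the 4 libraries (log axis) and its difference on the log2(CPM + 10) scale, with dashed lines at 1.5-fold. Orange called genes were at least 10-fold more abundant in another gated cell class and purple called genes were not; the largest positive differences are mostly orange, with Ngp at 3.70 on top, and Cx3cr1 stands out at high abundance with 0.84.

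The largest positive differences belonged to genes of granulocytes, their progenitors and mast cells. Ngp, a protein of neutrophil granules (chr9:110419747-110423012 in mm10), held 0.489, 2.01, 168 and 110 CPM in libraries 1 to 4. S100a9 held 23.3, 34.4, 469 and 330 CPM, and its partner S100a8, with which it forms calprotectin, held 103, 114, 826 and 621. Both libraries 3 and 4 lay far above libraries 1 and 2 for these 3 genes, with log2 differences of 3.70, 3.39 and 2.61. Camp, the antimicrobial cathelicidin, had a difference of 3.07, Ltf, the iron binder lactoferrin, of 2.23 and Lcn2, a binder of bacterial siderophores, of 2.20. These were accompanied by the stefin A genes, inhibitors of cysteine proteases that lie together on chromosome 16. BC100530, Stfa1, Stfa2l1 and Stfa3 had differences of 3.17, 2.38, 1.82 and 1.81, and Stfa1 held 46.6, 45.9, 303 and 263 CPM. The copies of this family are nearly identical, so reads could be split between them and the value of a single copy is uncertain.

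Mpo, the myeloperoxidase of granulocyte progenitors, held 14.7, 20.1, 120 and 154 CPM, a log2 difference of 2.42. The serine proteases made at the same stage followed, with Prtn3 at 1.33, Ctsg at 1.57 and Elane at 1.14. Mast cell genes formed the remaining part. The carboxypeptidase Cpa3 held 15.5, 21.4, 198 and 164 CPM, a difference of 2.75, and the chymase Cma1 held 35.9, 41.6, 286 and 229, a difference of 2.45. Tpsb2, a tryptase, and Hdc, which makes histamine, both stood at 2.03 and 2.02. The Poisson 95% interval of Cpa3 in library 3 was 192 to 203 CPM. Such intervals cover counting error only.

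Other cell types of the same libraries held these genes at far higher levels. Cells without Csf1r were gated as neutrophils, granulocyte-monocyte progenitors, mast cells, erythroid, hepatocyte, neural and mesenchymal cells by their markers, so a marker's own ratio is partly set by its gate. Of the 85 higher genes 48 (56.5%) were at least 10-fold more abundant in 1 of these 7 classes than in the members, 20 of them in neutrophils, 10 in mast cells, 7 in progenitors, 7 in mesenchymal, 3 in erythroid and 1 in hepatocyte cells. Among all genes compared the share was 2.53%. The classes themselves were unequal between libraries. Gated neutrophils numbered 3, 4, 245 and 376 in libraries 1 to 4, progenitors 3, 7, 78 and 227, and mast cells 21, 23, 254 and 288. Marker lists showed the same split inside the members. All 6 neutrophil markers and all 4 progenitor markers were called higher, with summed levels of 129, 157, 1679 and 1181 CPM and of 58.9, 71.4, 256 and 353. Of 5 mast cell markers 1, Cpa3, was called, with a sum of 17.6, 23, 217 and 181 CPM. The others were under 10 CPM as a mean of the 4 libraries and could not be called. Among them Gata2 held 1.68, 1.45, 15.7 and 13.8 CPM. Of 5 monocyte markers 3 were called higher, with a sum of 268, 258, 395 and 459 CPM. Over all genes compared 1.19% were called higher. The mast cell marker Fcer1a had 0 UMIs in libraries 1 and 2, against 3 and 8 in libraries 3 and 4. The part of these cell types in the difference was not tested.

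The UMIs of these genes sat in few cells. In the highest 1% of member cells lay 88.4% and 82.0% of the Ngp UMIs of libraries 3 and 4, 81.5% and 72.0% of the S100a8 UMIs, and 75.6% and 77.1% of the Cpa3 UMIs. For Cx3cr1 the same share was 4.19% and 4.23%. At least 50% of the UMIs lay in the highest 1% of cells, in both libraries with the higher level, for 36 of the 85 higher and 6 of the 20 lower genes. When each gene was recounted without its highest 1% of cells, 53 genes (0.774% of 6845) were higher and 17 (0.248%) lower, and 52 of the 85 and 13 of the 20 were among them. Of the genes named above, Ltf, Lcn2, Camp, Tpsb2, Hdc, Stfa2l1 and Stfa3 were then under 10 CPM, whereas S100a8 still held 24.9, 22.4, 155 and 181 CPM and Cpa3 2.57, 3.54, 47.0 and 38.1.

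**Figure D2:**
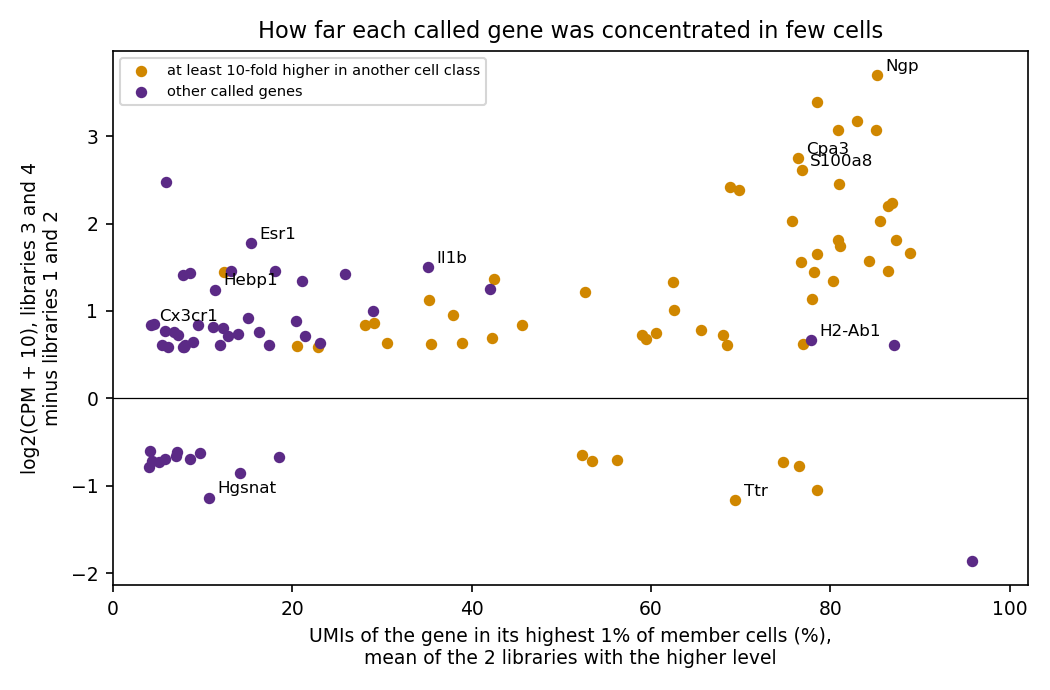
Each point is a called gene, by the percentage of its UMIs found in its highest 1% of member cells (mean of the 2 libraries with the higher level) and its log2(CPM + 10) difference. Genes at least 10-fold more abundant in another cell class (orange) gather at the right, such as Ngp and S100a8, and genes such as Cx3cr1, Hgsnat, Hebp1 and Esr1 (purple) lie at the left, with their UMIs spread over many cells.

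Cells that should lack granule genes showed the same split. After thinning every cell to 2000 UMIs, which left out 87 shallower members, S100a8 was detected in 5.69%, 4.66%, 19.6% and 25.4% of members. In mesenchymal cells, gated on collagen genes with no Csf1r or Ptprc, the shares were 2.46%, 3.51%, 24.6% and 36.1%. The median depth before thinning was 14286 UMIs in members and 9003.5 in mesenchymal cells. In libraries 3 and 4 the members' shares lay below those of mesenchymal cells, which are not known to express the gene, so they are not read as expression. In libraries 1 and 2 they lay above, with only 3 and 2 mesenchymal cells detected. Without thinning, 31.3%, 27.0%, 74.9% and 82.5% of members had an S100a8 UMI. Cpa3 was detected in 6.48% and 6.41% of thinned members of libraries 3 and 4, against 10.5% and 11.3% of mesenchymal cells. By level, Cpa3 held 1.55, 6.91, 317 and 324 CPM in mesenchymal cells and 0.894, 0, 299 and 269 in erythroid cells.

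Members rich in these transcripts were also left out. Members with 10 or more UMIs of neutrophil, progenitor or mast cell markers numbered 55, 38, 167 and 449, or 1.64%, 1.27%, 10.3% and 18.5% of each library. Without them 48 genes (0.677% of 7089) were higher and 19 (0.268%) lower, and 45 of the 85 were among the former. S100a8 then had a log2 difference of 1.75 in place of 2.61, Cpa3 of 1.15 in place of 2.75 and Ngp, then under 10 CPM, of 1.43 in place of 3.70. These genes belong to the marker sets that chose the cells to remove, so smaller values follow from the filter and support nothing.

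The mast cell genes differed less among members without a tdTomato UMI. Cpa3 held 20.9, 31.1, 300 and 238 CPM in cells with such a UMI and 10.9, 10.8, 21.5 and 25.5 in cells without one, with log2 differences of 2.96 and 0.68. The differences of Cma1 were 2.56 and 0.56, those of Hdc 2.27 and 0.50, and those of Tpsb2 2.36 and 0.10, the last with overlap. Neutrophil genes were mixed. The differences of S100a8 were 2.21 and 3.16 and those of S100a9 3.08 and 3.61, larger in cells without such a UMI. Those of Ngp were 3.96 and 2.74 and those of Camp 3.27 and 2.30, smaller in cells without one, as for the mast cell genes. The difference between these subsets was not tested. No doublet caller was run, and the part of doublets and of free RNA in these values was not tested.

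Several genes of hepatocytes and neurons stood on the lower side. Ttr, the thyroid hormone carrier transthyretin, held 42.7, 37.7, 7.76 and 18.1 CPM, a log2 difference of -1.17. Afp, the fetal albumin-like protein, held 29.4, 38.0, 7.02 and 16.1, a difference of -1.05. That difference turned to 0.028 without cells with 2 or more G2 or M phase UMIs. This alternative left out 81.4%, 76.5%, 81.2% and 86.4% of the members of libraries 1 to 4. The apolipoproteins Apoa1 and Apoa2 stood at -0.77 and -0.73. Both libraries 3 and 4 lay below libraries 1 and 2, and library 4 lay more than 1.5-fold above library 3 for Ttr, Afp, Apoa1 and Apoa2 on the same scale. For Apoa1 and Apoa2 that gap was 0.69 and 0.73, about as large as the difference between the pairs. Sox11, a transcription factor of immature neurons, stood at -0.71, and Map1b, a microtubule protein of axons, at -0.71. Of the 20 lower genes 7 (35%) were at least 10-fold more abundant in another class, 4 in hepatocytes and 3 in neural cells. Of the 6 hepatocyte markers 4 were called lower, with a sum of 118, 125, 28.4 and 75.8 CPM, and of 5 neural markers 2, with 95.3, 129, 48.0 and 85.6. Albumin, Alb, of the same hepatocyte list went the other way, at 4.56, 4.57, 4.73 and 13.1 CPM, below the level needed to be compared. Gated hepatocytes numbered 19, 12, 22 and 30, and gated neural cells 85, 53, 21 and 30.

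Few cells carried these UMIs too. The highest 1% of member cells held 60.6% and 78.2% of the Ttr UMIs in libraries 1 and 2, and without those cells the difference was -0.50 for Ttr and -0.14 for Afp, with both genes under 10 CPM. Ccl21a (ENSMUSG00000094686), a lymphatic chemokine whose symbol is shared by near-identical copies, had the largest negative difference, -1.86, at 65.9, 15.4, 0.148 and 4.35 CPM. Of its UMIs in libraries 1 and 2, 96.1% and 95.6% lay in the highest 1% of cells, and the difference without them was -0.22. Its library 2 lay 1.58 below library 1, nearly as far apart as the pairs.

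A second set of called genes, the spread genes below, did not depend on their highest 1% of cells for the call. They were not all equally spread, as those cells held 40.7% and 29.6% of the Il1b UMIs of libraries 3 and 4. Of the 85 and 20 called genes, 46 were still called without their highest 1% of cells and were not 10-fold more abundant in another class, 34 of them higher and 12 lower, with 6 predicted genes among them. Such a gene that stood out by its abundance was Cx3cr1 (chr9:119901616-120069879). It held 349, 351, 665 and 603 CPM in libraries 1 to 4, with Poisson 95% intervals of 344 to 354, 346 to 357, 655 to 675 and 595 to 610. Libraries 1 and 2 were nearly equal, libraries 3 and 4 lay close together and far above them, and the log2 difference was 0.84. In thinned cells Cx3cr1 was detected in 49.1%, 48.9%, 71.1% and 67.6% of members, against at most 4.12% of mesenchymal cells in any library. Of all alternatives run, none moved its difference outside 0.77 to 0.96.

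Cx3cr1 was recounted in 4 subsets of members, and the pairs did not overlap in any of them. It was 0.79 in cells with a tdTomato UMI and 0.90 in cells without one. In cells with at least 2 UMIs of G2 or M phase genes it was 0.83, and in cells with none, which numbered 242, 316, 122 and 124, it was 0.98. Side by side in the same libraries, Kupffer cells held 144, 151, 288 and 239 CPM of Cx3cr1, microglia 424, 477, 556 and 568, monocytes 60.3, 48.6, 55.9 and 61.1, and mast cells 128, 118, 146 and 130. The pairs did not overlap in Kupffer cells, microglia and mast cells, with log2 differences of 0.79, 0.31 and 0.15, and they did in monocytes. In mesenchymal cells Cx3cr1 held 8.54, 3.45, 15.1 and 24.4 CPM. These classes share libraries with the members, and whether the difference varied between classes was not tested. Class sizes were 1255 Kupffer cells, 2455 microglia and 3563 monocytes over the 4 libraries. Mast cells numbered only 21 and 23 in libraries 1 and 2, so their small difference rests on few cells.

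Hebp1, which binds haem, held 57.3, 56.8, 147 and 150 CPM, a log2 difference of 1.24 that ranged from 1.19 to 1.37 over the alternatives. The pairs did not overlap in Kupffer cells, at 194, 176, 341 and 311 CPM, in microglia, at 94.3, 97.9, 179 and 231, in monocytes, at 15.2, 12.1, 74.7 and 71.4, or in erythroid cells, at 240, 199, 832 and 689. In mesenchymal cells its values overlapped, at 30.3, 62.1, 45.3 and 50.8 CPM. The split of the libraries was thus present for Hebp1 in the macrophage, monocyte and erythroid classes, and whether the classes differed in it was not tested.

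Some spread genes outside the naming rule were chosen after their values were seen. Esr1, the oestrogen receptor alpha, held 5.09, 5.91, 40.0 and 46.1 CPM in members, a difference of 1.77, and 1.35, 1.53, 95.8 and 117 in monocytes. Lepr, the leptin receptor, held 6.40, 7.38, 33.8 and 37.0 CPM in members and 20.9, 19, 84.3 and 104 in monocytes. Both were low in libraries 1 and 2 of these classes and clearly detected in libraries 3 and 4. The gene 1600014C10Rik held 21.6, 19.6, 69.0 and 80.0 CPM in members and 39.4, 47.6, 76.1 and 91.2 in microglia. Emid1, an extracellular matrix gene over 10-fold more abundant in mast cells and so not among the 46, held 4.91, 3.83, 31.0 and 27.5 CPM in members, and 144, 195, 173 and 176 in mast cells, where the pairs overlapped.

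**Figure D3:**
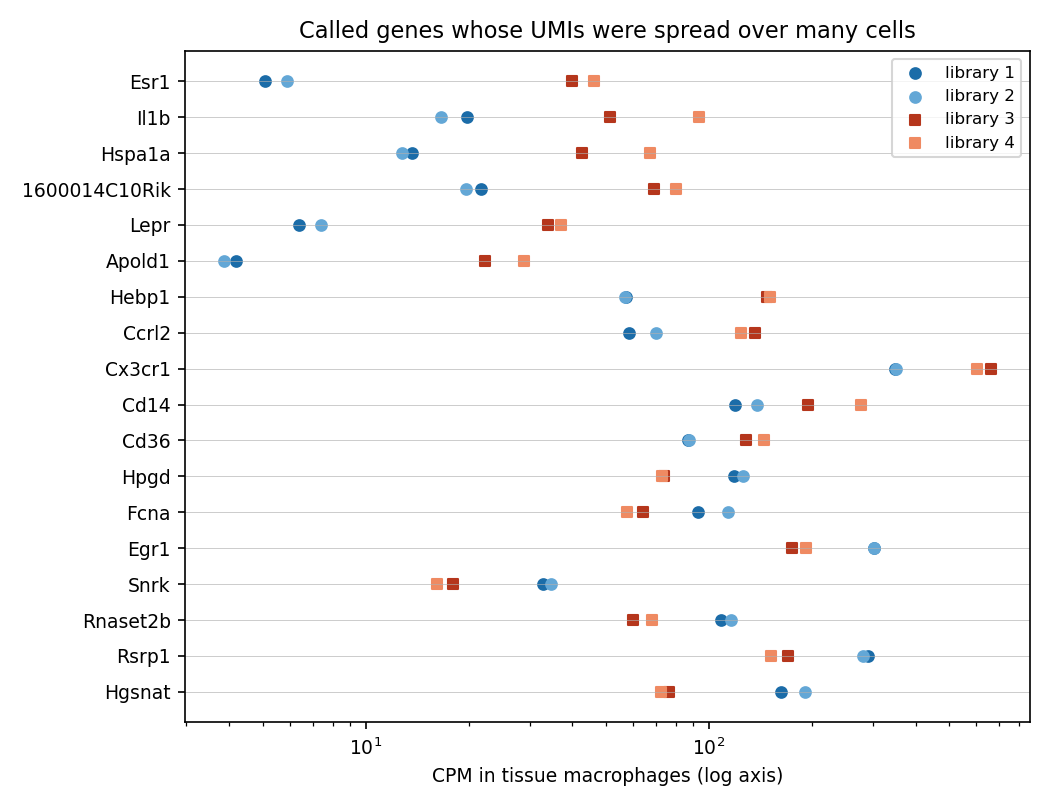
CPM (log axis) of 18 called genes in the members of each library, circles for libraries 1 and 2 and squares for libraries 3 and 4. For every gene drawn both squares lie on the same side of both circles, from Esr1 (5.09, 5.91, 40.0 and 46.1 CPM) to Hgsnat (162, 190, 76.3 and 72.4 CPM).

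The largest difference among spread genes on the lower side was that of Hgsnat (chr8:25944453-25976753, minus strand), a lysosomal acetyltransferase needed to degrade heparan sulfate. It held 162, 190, 76.3 and 72.4 CPM, a log2 difference of -1.14 that stayed between -1.25 and -1.02 over the alternatives. In thinned cells it was detected in 22.3%, 24.4%, 13.4% and 11.4% of members. Its level was also lower in libraries 3 and 4 without overlap in Kupffer cells, at 147, 179, 100 and 93.9 CPM, microglia, at 46.7, 50.6, 27.9 and 27.9, monocytes, at 53.5, 58.4, 37.6 and 33.1, and mesenchymal cells, at 45.1, 43.2, 25.1 and 17.6. Hgsnat thus separated the pairs by level in the macrophage and monocyte classes, and it did not in erythroid cells. The difference in mesenchymal cells rests on few cells. After thinning, 6 of 122, 5 of 57, 2 of 57 and 4 of 97 mesenchymal cells had a Hgsnat UMI. The Clopper-Pearson intervals of these shares overlapped, so they cannot tell whether mesenchymal cells differed between the pairs.

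Rsrp1, an arginine and serine rich protein, held 290, 281, 170 and 152 CPM, a difference of -0.79. It too was lower without overlap in Kupffer cells, microglia, monocytes, mesenchymal and erythroid cells, with differences of -0.98, -0.86, -0.95, -0.58 and -0.42. Rnaset2b, a lysosomal ribonuclease whose reads may be shared with the near-identical Rnaset2a, held 108, 116, 59.9 and 68.4 CPM. It was lower without overlap in Kupffer cells, microglia, monocytes and mesenchymal cells, with differences of -0.77, -0.83, -0.53 and -0.72.

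The remaining lower genes with spread UMIs differed less. Hpgd, which inactivates prostaglandins, held 118, 126, 73.7 and 72.9 CPM, a difference of -0.66, and was at 69.2, 73.2, 24.8 and 25.6 in monocytes. Fcna, the lectin ficolin A, held 93.0, 114, 64.4 and 57.8 CPM, a difference of -0.67, and was also lower in Kupffer cells, at 787, 847, 662 and 594. Snrk, a kinase related to AMPK, held 32.9, 34.5, 18.0 and 16.1 CPM, a difference of -0.69, and 41.5, 49.1, 14.9 and 16.7 in microglia. In each of these classes libraries 3 and 4 lay below libraries 1 and 2.

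**Figure D4:**
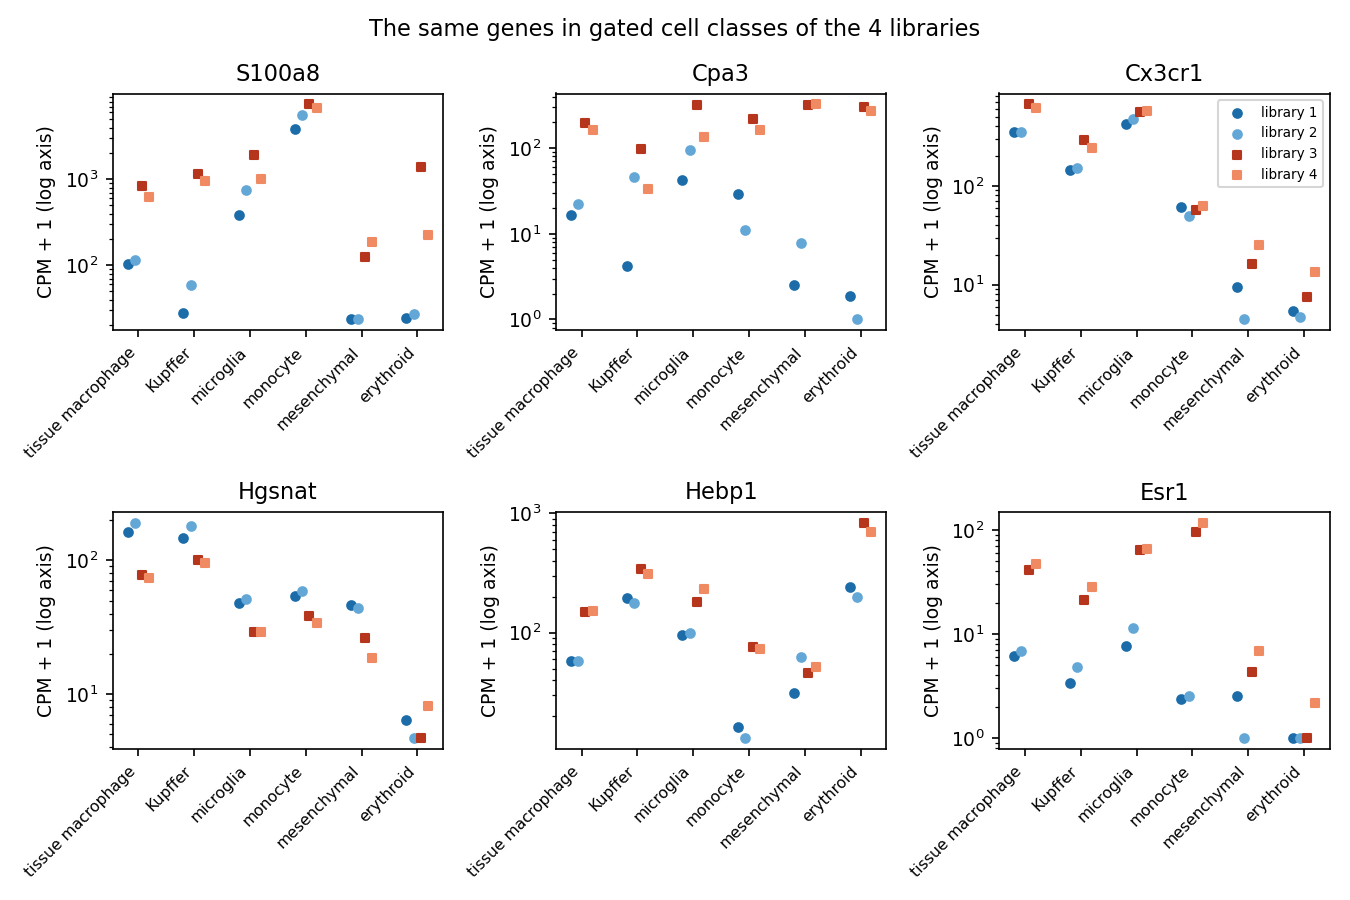
CPM + 1 (log axis) of 6 genes in 6 gated cell classes, circles for libraries 1 and 2 and squares for libraries 3 and 4. S100a8 and Cpa3 are higher in libraries 3 and 4 in mesenchymal and erythroid cells too, Cx3cr1 separates the pairs in members (349, 351, 665 and 603 CPM) and not in monocytes, and Hgsnat is lower in libraries 3 and 4 in all classes drawn but erythroid cells.

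Several spread genes lay near each other in the genome. Of the 46, 15 (32.6%) had another of the 46 within 2 Mb, whereas 10.8% of all genes compared had one of the 46 within that distance. Neighbours called in the same direction were Apold1 and Hebp1 on chromosome 6, March5 and Ide on chromosome 19, Rnaset2b and Sft2d1 on chromosome 17, and Hist1h2ap, Hist1h2ae and Hist1h2ac on chromosome 13. Neighbours called in opposite directions were Herpud1, lower, and Ciapin1, higher, on chromosome 8, and Egr1, lower, and Cd14, higher, on chromosome 18. Histone genes of 1 cluster share sequence, so their separate counts are uncertain. Chromosome 8 held 6 of the 20 lower calls, or 1.52% of its 394 genes compared against 0.281% of all genes compared, and 5 of them were among the 46. These neighbours were noticed after the values were seen, and no test was made.

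Inflammatory and stress lists held at most 2 called genes each. Over all genes compared 1.19% were called higher and 0.281% lower, which 1 call in so short a list exceeds. Il1b, a cytokine of activated macrophages, held 19.8, 16.5, 51.3 and 93.4 CPM, a log2 difference of 1.5, and was the called gene of 5 cytokines compared. Its difference ranged from 0.95 to 2.30 over the alternatives. Hspa1a, an inducible heat shock protein, held 13.6, 12.7, 42.7 and 67.5 CPM, a difference of 1.46, and its near-identical copy Hspa1b was too low to compare. Library 4 lay above library 3 by 0.75 and 0.56, so the upper pair was itself uneven for both genes. Of 10 heat shock genes 1 was called and the median was 0.19. Hsp90aa1 at 462, 443, 679 and 655 CPM was higher and Hspa5, a chaperone of the endoplasmic reticulum, at 871, 1003, 719 and 633 CPM was lower, neither by 1.5-fold.

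Cd14, a co-receptor for bacterial lipopolysaccharide, held 119, 138, 194 and 278 CPM, a difference of 0.81, and was the called gene among 8 Fc and Toll-like receptors, whose median was -0.14. Ccrl2, which binds chemerin, held 58.6, 70.1, 136 and 124 CPM, a difference of 0.91, and Ccrl2 and Cx3cr1 were the called genes of 8 chemoattractant receptors. The scavenger receptor Cd36 held 87.1, 87.6, 128 and 145 CPM, a difference of 0.59, as the called gene of 11 efferocytosis and scavenger genes. Over the alternatives the difference ranged from 0.52 to 1.40 for Cd14, 0.53 to 1.53 for Ccrl2 and 0.50 to 0.72 for Cd36. The lower end was under 1.5-fold for each. Each of these genes lay above in both libraries 3 and 4. Gas6, a bridge to dying cells, went the other way without reaching 1.5-fold, at 595, 642, 463 and 421 CPM. Gadd45b, a stress gene, was called among 11 genes of NF-kB feedback, with 25.3, 23.1, 38.3 and 46.6 CPM and a difference of 0.61. Its difference ranged from 0.24 to 1.21 over the alternatives. Chemokines, interferon-induced genes and MHC class I genes had medians of -0.10, -0.08 and -0.01 and no called member, and each of these medians was above 0 in at least 1 alternative. Cxcl1 and Cxcl2 were left out of the chemokine list as gate genes, and the limit on them took out more cells of libraries 3 and 4. The chemokine median can therefore not be read apart from the gate.

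Immediate early genes, the first to be transcribed after stimulation, divided. Egr1 held 302, 302, 175 and 192 CPM, a difference of -0.69, and was called lower. Nr4a1 held 38.1, 38.1, 58.9 and 85.8 CPM, a difference of 0.76, and was called higher. Of the 17 compared, 11 were lower and 3 higher without overlap, and the list median was -0.21. Fos held 1746, 1797, 1356 and 1391 CPM and Jun 1086, 1267, 929 and 811, both lower in libraries 3 and 4. In monocytes Egr1 stood at 185, 178, 44.7 and 37.6 CPM. This list turned on the gate, which took out more cells rich in Cxcl1 and Cxcl2 from libraries 3 and 4. Without the limit on these chemokines the median of the immediate early list was -0.0043, and with the limit lowered to 0.02% it was -0.37.

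**Figure D5:**
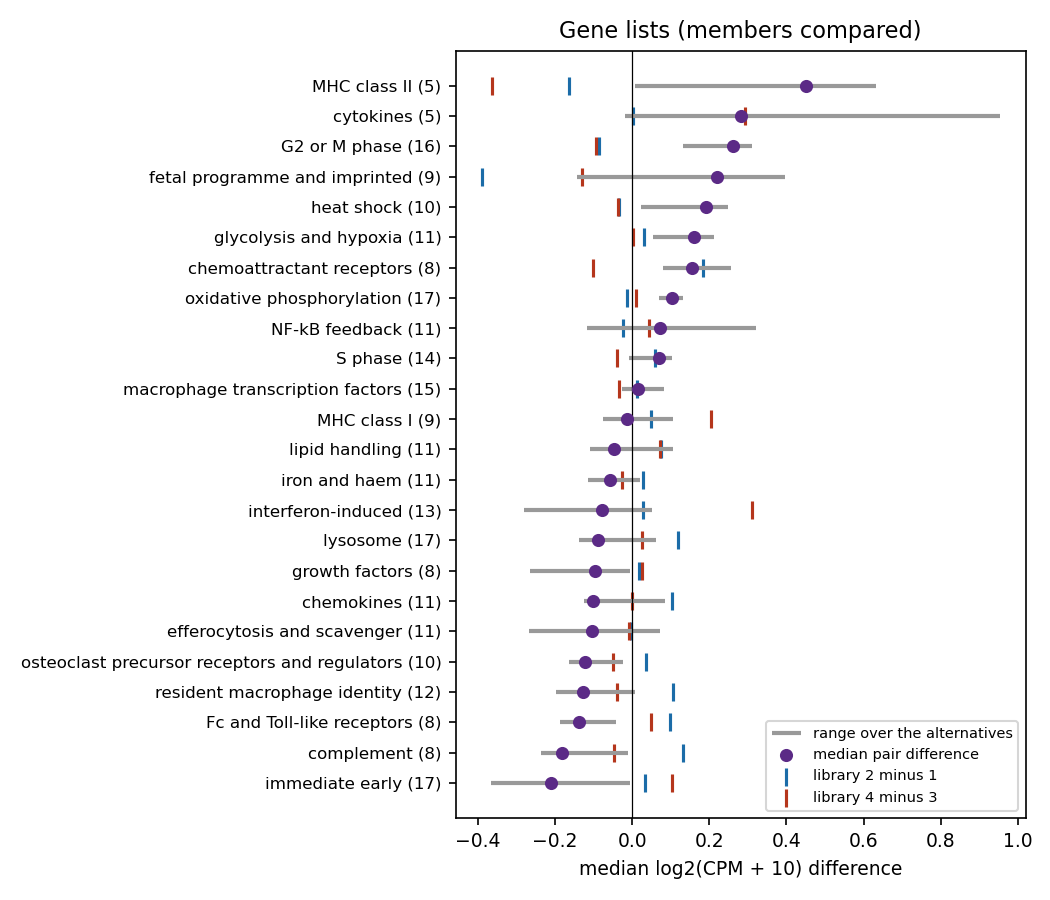
Median log2(CPM + 10) difference of 24 gene lists (dots, with the number of members compared in brackets), the range of that median over the alternatives run (grey bars) and the medians of the differences within the pairs (ticks). G2 or M phase (0.26) and oxidative phosphorylation (0.10) stay above 0 over all alternatives and complement (-0.18) and immediate early genes (-0.21) stay below 0.

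Genes of cell division were higher as a group by a small amount. Of 16 genes of G2 or M phase 15 were higher without overlap and none was called, with a median of 0.26 against -0.01 over all genes. Cdk1, the kinase that starts mitosis, held 138, 138, 182 and 170 CPM, and Ube2c, which degrades cyclins, held 195, 174, 229 and 233. The share of thinned members with at least 2 UMIs of these genes was 39.9% (Clopper-Pearson 95% interval 38.2 to 41.6), 36.1% (34.4 to 37.9), 43.5% (41.0 to 45.9) and 45.1% (43.0 to 47.1) in libraries 1 to 4. In monocytes the shares were 69.0%, 68.6%, 72.3% and 76.0%. The S phase list stood at 0.07, with 7 of 14 higher without overlap, and at -0.0088 without cells with 2 or more G2 or M phase UMIs. Phase was not called per cell.

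Most energy genes compared were slightly higher in libraries 3 and 4. Of 17 genes of oxidative phosphorylation 16 were higher without overlap and none was called, with a median of 0.10. Atp5b, a subunit of ATP synthase, held 826, 869, 994 and 1005 CPM. Of 11 genes of glycolysis and hypoxia 7 were higher without overlap and 2 lower, with a median of 0.16 and Ldha, lactate dehydrogenase, at 803, 821, 934 and 927 CPM.

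Among genes of the resident macrophage programme none was called in the lists for complement, resident identity, lysosome, growth factors, lipid handling and macrophage transcription factors. Of 8 complement genes 6 were lower without overlap, with a median of -0.18, and C1qa held 2520, 2741, 2348 and 2287 CPM. Of 12 identity genes 7 were lower and 1 higher without overlap, with a median of -0.13. The chemokine Pf4, a mark of tissue macrophages, held 3043, 3140, 2474 and 2355 CPM and F13a1, a clotting factor subunit, held 827, 918, 768 and 697. Of 17 lysosomal genes 9 were lower and 1 higher without overlap, with a median of -0.09. Without cells with 2 or more G2 or M phase UMIs the identity median was 0.01 and the lysosome median 0.06. Ctsd, a lysosomal protease, held 2247, 2448, 2081 and 2167 CPM. Growth factors, lipid handling and transcription factors had medians of -0.10, -0.05 and 0.02. Of 8 growth factors 3 were lower and 2 higher without overlap, near the shares of 32.8% and 30.4% over all genes. Tgfb1 was among the lower, at 366, 371, 310 and 300 CPM. The master regulator Spi1 held 515, 520, 505 and 514 CPM, which is nearly the same in all libraries.

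Receptors and regulators of osteoclast precursors, the cells named in the title of the series, were mostly slightly lower. Apart from Cx3cr1, none of the 10 compared was called, and the median was -0.12. Without overlap 7 were lower and 3, Cx3cr1 among them, were higher. Over all genes compared these shares were 32.8% and 30.4%. Tyrobp, the adaptor DAP12, held 2327, 2404, 2078 and 2103 CPM, and Fcer1g, the other adaptor of these receptors, held 3693, 3878, 3319 and 3193. Of 11 genes of iron and haem handling Hebp1 was the called one, with a median of -0.06, and Hmox1, which degrades haem, held 556, 647, 501 and 463 CPM.

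The MHC class II and imprinted lists held called genes whose UMIs were concentrated or whose pairs were uneven. MHC class II genes, which present antigen, had a median of 0.45 over 5 genes, with H2-Ab1 at 10.2, 6.04, 24.5 and 13.7 CPM and H2-Aa at 10.0, 6.07, 23.2 and 12.4. Of the H2-Ab1 UMIs of libraries 3 and 4, 86.3% and 69.5% lay in the highest 1% of cells, and without them its difference was 0.13 and that of H2-Aa 0.14. Meg3, an imprinted RNA, held 66.1, 29.5, 108 and 92.5 CPM, a difference of 1.01. That difference turned to -0.15 without cells with 2 or more G2 or M phase UMIs. The imprinted Dlk1 held 31.5, 19.1, 47.7 and 38.8 CPM. Both were called among 9 fetal and imprinted genes, both were at least 10-fold more abundant in mesenchymal cells, and for both library 1 lay well above library 2. The mesenchymal markers summed to 83.0, 58.0, 142 and 118 CPM in the members, and 2 of 6 were called higher. Their part in these values was not tested.

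The lineage reporter did not separate the pairs by level. tdTomato held 140, 214, 204 and 230 CPM in members, and library 2 lay above library 3. In thinned members it was detected in 18.7% (17.4 to 20.1), 25.6% (24.0 to 27.2), 29.9% (27.7 to 32.2) and 29.5% (27.7 to 31.4), with Clopper-Pearson 95% intervals. In mesenchymal cells the shares were 5.74%, 5.26%, 5.26% and 11.3%, so detection in members lay above that background in every library. Kupffer cells gave 23%, 28.6%, 29.2% and 31.5% and microglia 31.0%, 40.8%, 41.9% and 39.0%. In each of the 3 macrophage classes library 1 was lowest.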

How the data were processed

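Droplet 3-prime single-cell RNA-seq of mouse cells (10x Genomics, per the labels' protocols) gave UMI counts per gene and barcode, which the authors deposited as 1 matrix of 31054 features, tdTomato among them. Per the file headers, version 3.0.1 of Cell Ranger made the deposited counts. Version 2.1.1 stands in the submitters' processing notes, with mm10 as the build. The cell filter removed 4461 barcodes, and no doublet caller was run. Counts were summed per barcode number over member cells and scaled to CPM by the summed total (Python 3.11.15, numpy 2.4.6, pandas 2.3.3), with exact Poisson 95% intervals from scipy 1.17.1. Chromosomes and coordinates came from GENCODE M21, which matched 31011 features. Shares of cells carry exact Clopper-Pearson intervals after thinning. The script that makes the calls was checked on simulated counts, a check of the code and not of these libraries.

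The text names genes among the 15 highest and 15 lowest called, leaving out ribosomal, mitochondrial, predicted and gate genes, then the gate genes and, of 24 lists, the called members and examples from the 4 most abundant. One gene under this rule is not reported here. Members, lists and rules were chosen with earlier results of these data known. The neutrophil, progenitor, mast cell, hepatocyte and neural classes, the counts without each gene's highest 1% of cells, those without marker-rich cells, and the 2 Mb window were chosen after seeing the data. Alternatives changed scaling (TMM factors from edgeR 4.0.16), the low-count filter, the pseudocount, the gate limits, depth and the libraries included.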

Additional observations from a re-analysis of the deposited data

How the results depend on the processing

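No paired analysis was possible because the barcode numbers carry no sample label or replicate number, and no result came from a test. The 85 higher and 20 lower genes became 79 and 20 with TMM scaling and 81 and 20 with median-of-ratios scaling. Counts moved by over 1.5 times to 33 and 9 with genes of at least 50 CPM and to 39 lower with a pseudocount of 1. They moved as far to 56 higher without cells with 2 or more G2 or M phase UMIs and to 42 and 4 at 2-fold. So did 2 alternatives chosen after seeing the data. These gave 53 higher without each gene's highest 1% of cells, and 48 higher without cells with 10 or more granulocyte, progenitor or mast cell UMIs. Leaving out each library gave 78 to 96 higher and 21 to 33 lower genes, with 33 lower when library 4 was left out. The share of higher genes among the calls was 81.0%, and 70.0% without cells with 2 or more G2 or M phase UMIs and 70.3% without library 4. For 43 named genes 903 recomputations were made. Of these 727 stayed within the larger of the spread within pairs and the Poisson counting error, 174 moved further and 2 reversed. Without cells with 2 or more G2 or M phase UMIs Afp stood at 0.028 and Meg3 at -0.15. Of 504 recomputed list medians 143 moved, and 7 of 24 lists changed sign without cells with 2 or more G2 or M phase UMIs. Thinned to 4000 UMIs, tdTomato was found in 26.1%, 33.7%, 38.1% and 40.9% of members and G2 or M phase UMIs in 54.5%, 50.4%, 56.5% and 58.4%. Unthinned, the shares were 44.0%, 51.3%, 58.7% and 61.5%, and 81.4%, 76.5%, 81.2% and 86.4%. With the stricter cell filter the tdTomato share of library 3 was 26.5%. The causes were not tested. Genes under 10 CPM and differences inside the spread of a pair were beyond what this depth and 2 libraries a side could show.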
